A study of Mus musculus with 72 samples.

Results

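The comparison described here is that of gastrocnemius from *Bmal1*-KO mice at 40 weeks with the same muscle at 10 weeks. It rests on 11 of the 72 RNA-Seq libraries of the series, 5 at 40 weeks and 6 at 10 weeks, taken by their labels for genotype, muscle, and age. All 11 came from male mice, and tissue was collected at ZT1, 1 hour after lights on. The mice were homozygous for a deletion of *Bmal1* (gene symbol *Arntl*) in the whole body, bred from heterozygous parents, and had received no vector. The 40-week mice are those that lived to that age. WT mice, littermates with both alleles, and KO+AAV mice, the same homozygotes given at postnatal day 5 an AAV9 vector with *Bmal1* under the muscle-specific CK6 promoter, were sampled at the same ages (11 and 12 libraries) and serve here to estimate spread and to show where KO muscle differed. The labels name each library as a replicate but no animal, so the *P* values measure the spread between these samples.

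BMAL1 pairs with CLOCK to switch on genes that hold an E-box, among them those of its own repressors, the PER and CRY proteins. In skeletal muscle the same clock also times genes of metabolism, contraction, and maintenance. Mice without BMAL1 in any tissue are short-lived and show early signs of aging, so this comparison asks how transcripts in their muscle move between young adulthood and an age that many of them do not reach.

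Values are normalized counts, that is, the reads of a gene divided by 1 size factor per library. The KO libraries held 9325122 to 12652064 reads assigned to genes at 40 weeks and 10076827 to 41733282 at 10 weeks. All 40-week libraries were sequenced at Novogene, whereas 3 of the 6 at 10 weeks (replicates 1 to 3) were sequenced at a second site, ICBR. The fits therefore carried a term for site, which the 10-week libraries of all 3 groups at both sites estimate. Muscle fiber markers were present in every library, with a summed level of 1716718 to 3490001 normalized counts at 40 weeks and 2853427 to 3660225 at 10 weeks.

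The library labelled KO 40-week replicate 2 stood apart from the rest. Among 9146 genes with a mean above 100 normalized counts over the KO libraries, 353 were more than 2-fold above the highest of the other 10 libraries in it and 247 were less than 0.5 of the lowest. The next library in this respect, 40-week replicate 3, had 43 and 21 such genes. A count or call below that changed without replicate 2 is given both ways.

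**Figure D1:**
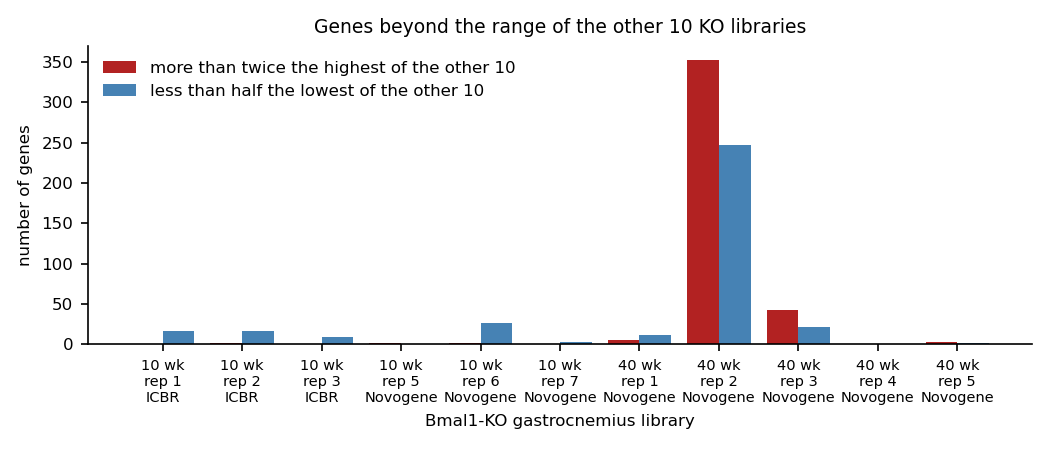
Number of genes (y axis) that lie more than 2-fold above the highest (red) or at less than 0.5 of the lowest (blue) of the other 10 KO libraries, for each library (x axis, with age, replicate, and site), among 9146 genes. The 40-week replicate 2 bars, at 353 and 247 genes, exceed those of replicate 3, at 43 and 21.

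*Arntl* (chromosome 7, 113207465 to 113314126, plus strand, GRCm38), the gene deleted in these mice, was read first. Its 10-week values in KO muscle ran from 196.1 to 296.5 normalized counts (median 236.2). At 40 weeks replicates 1 to 5 had 381.1, 1039, 395.4, 312.3, and 307.5. All 5 values at 40 weeks lay above all 6 at 10 weeks, and that of replicate 2 lay above the highest of 11 WT libraries, whose values ran from 402.5 to 633.9 at 10 weeks and from 479.9 to 607.9 at 40 weeks. Within Novogene the difference was 0.87 on the log2 scale (2-sided exact permutation *P* = 0.0357 for 5 against 3 libraries, the smallest value this design allows). Without replicate 2 it was 0.55 (exact permutation *P* = 0.0571, again the smallest possible). These are reads over the whole gene, and a deleted allele can still yield reads from the part it keeps. The sources used here do not state which exons the allele lacks, so the level does not check the genotype.

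Another 2 transcripts bear on the label of replicate 2. *Mylk4*, a myosin light chain kinase gene and muscle clock output, had 66.3 normalized counts in it, against a lowest value of 23639 in WT muscle at 10 weeks. *Cacna2d4*, a calcium channel subunit gene, was listed at 0 in it, against lowest values of 202.9 and 108.0 in WT muscle at 10 and 40 weeks. In both genes it lay with the other KO libraries, whose highest values were 2845 and 5.4 normalized counts. KO+AAV muscle at 40 weeks had 5598 to 13675 of *Mylk4* and 0 to 15.3 of *Cacna2d4*, so *Cacna2d4* does not tell KO from KO+AAV.

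Among 17 core clock genes tested, 2 rose, among them *Arntl*, and 1 fell, *Cry1* (1 and 0 without replicate 2). Here and below, rose and fell mean an adjusted *P* under 0.05 in limma across 16199 genes. The background to these counts is that 4.05% of all genes tested rose and 4.26% fell. *Cry1*, a repressor of BMAL1-CLOCK, ran from 459.1 to 596.0 at 10 weeks (median 525.3) and was 414.1, 259.7, 429.1, 360.5, and 439.9 at 40 weeks. All its 40-week values lay below all its 10-week values (log2 change -0.43 ± 0.13, SE here and below, adjusted *P* = 0.0363), and without replicate 2 the change was -0.30 (adjusted *P* = 0.16). *Per2* and *Nr1d1*, which code for other repressors of the loop, gave log2 changes of 0.57 and -0.24 and did not pass the test (adjusted *P* = 0.0953 and 0.405). *Per1* had 3768 normalized counts in replicate 2 and 246.9 to 513.4 in the other 40-week libraries, against 135.2 to 463.1 at 10 weeks (adjusted *P* = 0.235).

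Of 16 genes on a list of clock outputs, 3 fell and 1 rose, with or without replicate 2. *Mylk4* (chromosome 13, 32700834 to 32783954, minus strand) ran from 982.3 to 2845 normalized counts at 10 weeks (median 1924). At 40 weeks it was 143.1, 66.3, 53.6, 248.1, and 638.5, so that every 40-week library lay below every 10-week one. The log2 change was -3.30 ± 0.44 (adjusted *P* = 1.03e-04), -3.00 without replicate 2 and -3.40 within Novogene. *Bhlhe41*, which codes for the repressor DEC2, ran from 523.5 to 1060 (median 816.9) and was 323.3, 96.7, 243.7, 497.9, and 500.6 at 40 weeks. The groups did not overlap and the log2 change was -1.39 ± 0.31 (adjusted *P* = 0.00693), or -1.01 without replicate 2 (adjusted *P* = 0.0267). *Wee1*, a kinase gene that restrains entry into mitosis, was low throughout, at 24.8 to 33 normalized counts at 10 weeks and 12.4, 26.9, 13.8, 14.3, and 8.27 at 40 weeks. Only replicate 2 reached the 10-week range (log2 change -1.29 ± 0.29, adjusted *P* = 0.00717). *Dbp*, which codes for a D-box activator, was 103.0 to 119.3 at 10 weeks and 85.3, 32.2, 75.1, 92.8, and 73.1 at 40 weeks. Its groups did not overlap either, but its change of -0.93 missed the threshold (adjusted *P* = 0.0579). Over 10% of the exon sequence of *Bhlhe41* and of *Dbp* overlaps a gene on the other strand, as for *Ostn* below.

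The 250 bases upstream of the RefSeq gene starts of *Mylk4*, *Bhlhe41*, and *Cry1*, 3 clock-related genes lower at 40 weeks, are shown because the E-box is the site BMAL1-CLOCK reads. They are RefSeq promoters on GRCm38.p6, written 5′ to 3′ on the gene's strand, at chr13:32783965-32784214, chr6:145865421-145865670, and chr10:85185055-85185304, all on the minus strand. In GENCODE *Bhlhe41* starts at 145865558, inside its window, so part of that window lies within the GENCODE gene. Capitals mark the E-box CACGTG, which reads the same on both strands.
Mylk4: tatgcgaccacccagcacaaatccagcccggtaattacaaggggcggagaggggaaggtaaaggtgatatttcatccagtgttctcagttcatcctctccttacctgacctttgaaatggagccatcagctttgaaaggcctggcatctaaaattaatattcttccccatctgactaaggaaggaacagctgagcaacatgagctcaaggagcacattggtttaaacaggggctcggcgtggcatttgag
Bhlhe41: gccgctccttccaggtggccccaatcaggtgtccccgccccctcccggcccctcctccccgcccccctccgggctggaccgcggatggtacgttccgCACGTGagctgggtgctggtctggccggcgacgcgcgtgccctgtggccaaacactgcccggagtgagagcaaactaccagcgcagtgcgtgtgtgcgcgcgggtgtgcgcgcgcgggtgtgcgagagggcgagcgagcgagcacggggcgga
Cry1: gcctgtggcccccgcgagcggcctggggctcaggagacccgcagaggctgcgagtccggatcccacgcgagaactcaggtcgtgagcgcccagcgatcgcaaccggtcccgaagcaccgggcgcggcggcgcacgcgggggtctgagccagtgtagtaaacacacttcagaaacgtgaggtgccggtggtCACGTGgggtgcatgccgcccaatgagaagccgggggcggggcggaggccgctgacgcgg
The E-box begins at -153 in the *Bhlhe41* window and at -60 in the *Cry1* window. Neither it nor the D-box TTATGTAA, searched on both strands, occurs in the *Mylk4* window, which says only that these letters are not in these 250 bases. By ChIP-qPCR in KO+AAV muscle, the study reported BMAL1 enriched at a *Mylk4* promoter region that holds an E-box. Over the same window the E-box occurs in 6.02% of 32851 promoters and the D-box in 0.819%. The 3 genes were chosen for their link to the clock. Of *Arntl* and the 24 genes named for the smallest *P* values, 21 have a promoter in the table, and the E-box occurs in 1 of them, against 6.86% of all genes in the table.

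Across all genes, 656 rose (4.05%) and 690 fell (4.26%) between 10 and 40 weeks in KO muscle. With the threshold the study used for DEGs, an unadjusted *P* under 0.01, 1961 genes (12.1%) passed. Of the genes that rose, 245 had every 40-week value above every 10-week value, and 278 of those that fell had the reverse. For comparison, 2.43% and 2.52% of all genes tested had groups that did not overlap in these directions. Part of the genes named in this report were chosen only among genes without overlap, so for these the separation was a condition of naming. Without replicate 2, 250 genes rose (1.55% of 16170) and 221 fell (1.37%), and 446 of these 471 were among the 1346 called with it. Leaving out 10-week replicate 5, 6, or 7 gave 770, 757, or 782 calls. Novogene libraries alone gave 392 calls, 372 of them shared. The share of calls that rose was 48.7% in limma, 59.6% in DESeq2, and 64.2% in edgeR, and the median log2 change of all genes was -0.011, 0.0069, and 0.0091 in the 3 tools.

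The spread in these counts was pooled over 34 gastrocnemius libraries. With the 11 KO libraries fitted alone 3 genes were called, and 57 without replicate 2, of which 53 were among the 1346. A set of 268 genes (154 that rose, 114 that fell) was called with all libraries, without replicate 2, within Novogene, and by DESeq2. Of the genes named below that kept their limma calls without replicate 2, *Aplnr*, *Chrnb1*, *Eda2r*, *Foxo1*, *Lmnb1*, and *Mdm2* lost them within Novogene, as did *Arntl* and *Wee1* (adjusted *P* 0.0514 to 0.204).

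Of 33 sarcomere and Z-disc genes tested, 10 rose and 1 fell (4 and 1 without replicate 2). *Ankrd1* (chromosome 19, 36111961 to 36120099, minus strand), which codes for a titin-bound ankyrin protein induced by mechanical load, ran from 191.7 to 354.5 normalized counts at 10 weeks (median 299.7). At 40 weeks it was 2094, 4237, 3162, 3068, and 525.4. All 5 values exceeded the 10-week range, a condition of the rule that named this gene, replicate 5 by the least. The log2 change was 2.94 ± 0.41 (adjusted *P* = 1.03e-04, 2.70 without replicate 2). *Klhl41*, which codes for a Kelch protein that stabilizes the thin filament, ran from 7289 to 11006 and rose to 12569, 18301, 18772, 11903, and 11230 (log2 change 0.78 ± 0.12, adjusted *P* = 4.96e-04). *Myot*, the gene of the Z-disc protein myotilin, gave 0.65 ± 0.14 (adjusted *P* = 0.00406), with replicate 4 inside the 10-week range. *Actc1*, the cardiac and developmental alpha-actin gene, was the member that fell, from 6175 to 37914 at 10 weeks to 5035, 2951, 1628, 2416, and 2823 (log2 change -2.23 ± 0.51, adjusted *P* = 0.00786). It fell in WT muscle over the same ages too (log2 change -3.31, adjusted *P* = 0.00123).

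The change with the highest fold among named risers was that of *Sln* (chromosome 9, 53850164 to 53854560, plus strand), whose product sarcolipin uncouples the SERCA calcium pump. It ran from 22.9 to 96.8 normalized counts at 10 weeks (median 67.7). At 40 weeks it was 1871, 2695, 2348, 2102, and 133.8. In 4 of 5 libraries it was thus far above the 10-week range and in replicate 5 just above it (log2 change 4.89 ± 0.73, adjusted *P* = 2.16e-04, 4.62 without replicate 2). *Casq1*, which codes for the calcium-storing protein of fast fibers, fell from 39886 to 60110 (median 54118) to 37677, 11118, 19060, 34303, and 25465 (log2 change -1.09 ± 0.25, adjusted *P* = 0.00791). *Pvalb*, the gene of the calcium buffer parvalbumin, also fell (log2 change -1.16 ± 0.30, adjusted *P* = 0.0183) but lost the call without replicate 2 (-0.98, adjusted *P* = 0.0782). *Camk2b*, a calcium-dependent kinase gene, rose by 0.80 ± 0.14 (adjusted *P* = 8.25e-04), and *Jph2*, which codes for a protein that holds the calcium release sites together, fell by 0.91 on the log2 scale (adjusted *P* = 0.0203) with a call that was lost without replicate 2 (adjusted *P* = 0.0877). In WT muscle *Camk2b* was higher at 40 weeks as well, at 3253 to 4489 against 2252 to 2927 (log2 change 0.60, adjusted *P* = 0.0654). In all, 2 of 25 calcium-handling genes rose and 4 fell with replicate 2, and 2 rose and 0 fell without it.

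Slow fiber genes had a median log2 change of 1.39 over the 17 tested, but 3 rose (*Sln*, *Actn2*, and *Ankrd2*) and without replicate 2 only *Sln* did. *Myh7*, the slow myosin heavy chain gene, ran from 12.3 to 20761 normalized counts at 10 weeks and was 2197, 13928, 53008, 722.7, and 9961 at 40 weeks. *Tnni1*, slow troponin I, was highest in the same library, replicate 3, at 11837 against 255.2 to 2790 in the other 4. Libraries of 1 age differed in these genes by more than 10-fold, and the age difference of 2.57 ± 2.31 in *Myh7* (adjusted *P* = 0.528) lay within that spread. In bulk muscle a larger share of slow fibers and more slow RNA per fiber cannot be told apart. Of 17 fast fiber genes, *Pvalb* and *Casq1* fell, and without replicate 2 *Casq1* alone did.

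**Figure D2:**
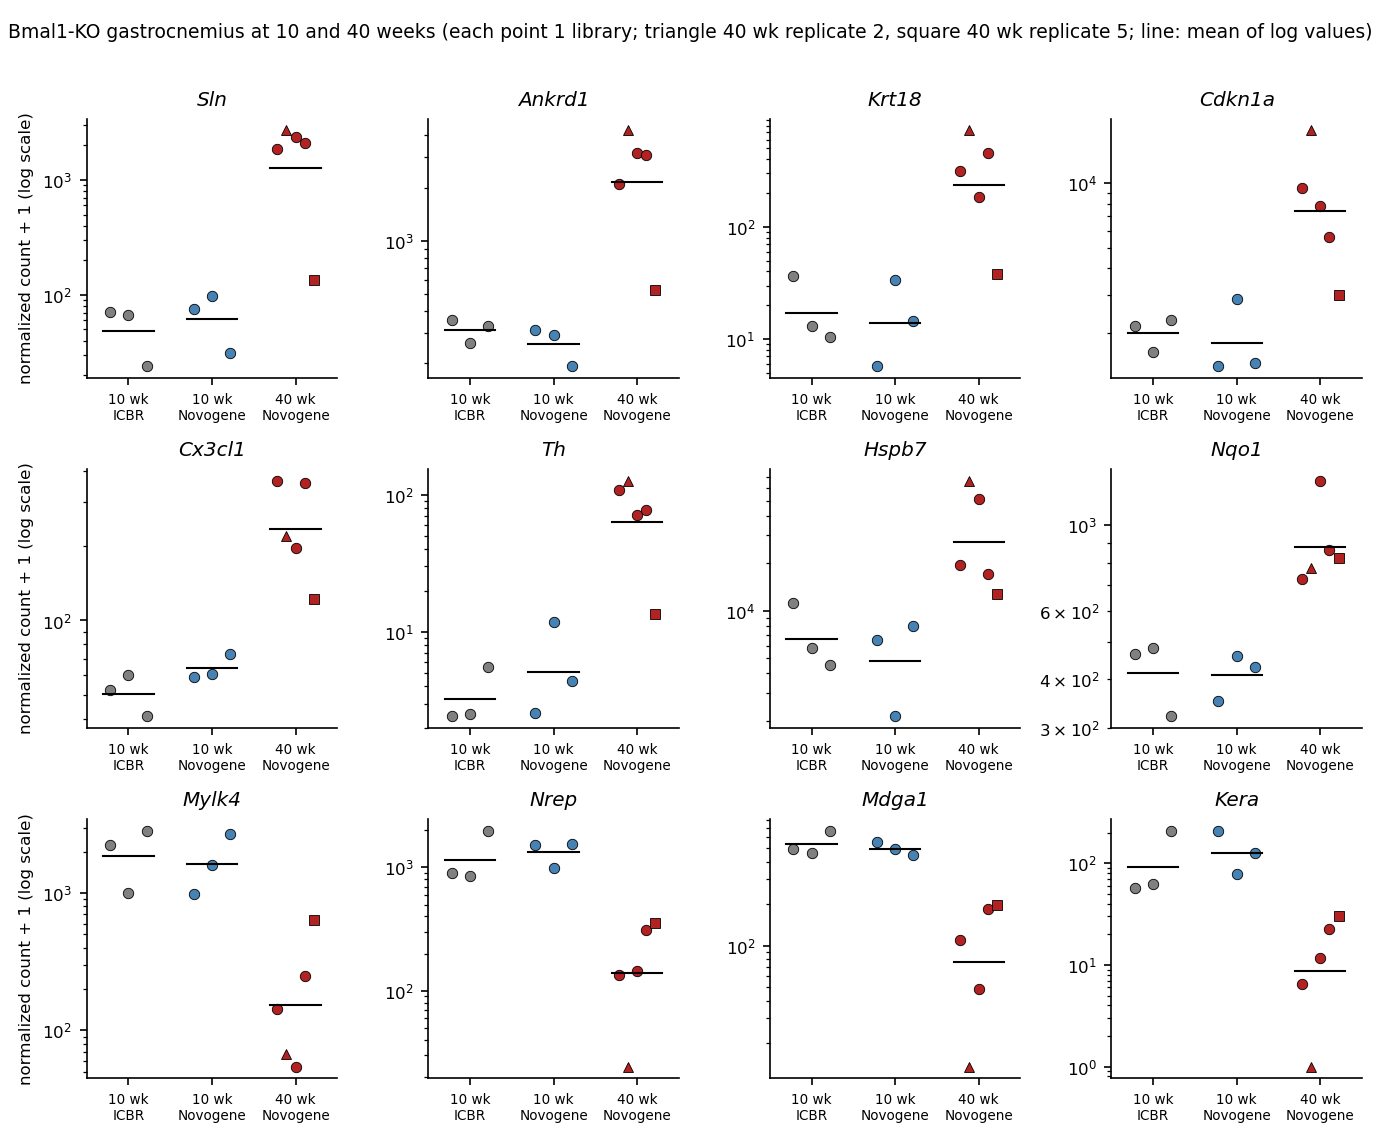
Normalized count plus 1 on a log axis for 12 genes, with each point 1 KO library at 10 weeks from ICBR (gray), 10 weeks from Novogene (blue), or 40 weeks from Novogene (red), and the line the mean of log values. A triangle marks 40-week replicate 2 and a square replicate 5. In each of the 12 panels the 40-week points lie beyond the 10-week points, a condition of the rule that named part of these genes. In *Sln*, *Ankrd1*, and *Krt18* replicate 5 lies nearest to the 10-week points.

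Of 31 heat shock and chaperone genes tested, 8 rose and 0 fell (5 and 0 without replicate 2), with a median log2 change of 0.19 over the list. The small heat shock protein genes *Hspb6*, *Hspb7*, and *Cryab* were among those that rose. *Hspb7*, which codes for a chaperone of the thin filament, ran from 2131 to 11180 at 10 weeks (median 6170) and was 19469, 66898, 51441, 17141, and 12769 at 40 weeks. The ages did not overlap (log2 change 2.09 ± 0.45, adjusted *P* = 0.00475). *Cryab*, the gene of the desmin chaperone alpha-B crystallin, ran from 3722 to 8948 and was 15565, 26047, 35716, 12303, and 12043 (1.38 ± 0.30, adjusted *P* = 0.00538). *Hspb6* rose by 1.06 ± 0.22 (adjusted *P* = 0.00377), and *Bag3*, which codes for the co-chaperone that sends damaged Z-disc proteins to autophagy, by 0.77 ± 0.16 (adjusted *P* = 0.00349). These 4 genes kept their calls without replicate 2 and within Novogene. Over its length 17.0% of *Cryab* exon sequence overlaps *Hspb2* on the other strand, and the strand setting of the counting is not given in the sources used here, so reads of the 2 genes cannot be told apart there.

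Antioxidant genes gave 3 that rose and 0 that fell of 31 (2 and 0 without replicate 2). *Nqo1*, a quinone reductase gene that NRF2 controls, ran from 319.9 to 480.3 at 10 weeks (median 443.3) and was 725.0, 773.7, 1304, 861.9, and 821.9 at 40 weeks. Every 40-week library lay above the 10-week range, and the log2 change was 0.98 ± 0.16 (adjusted *P* = 4.96e-04, 1.03 without replicate 2). *Nfe2l1*, which codes for the factor NRF1 that raises proteasome genes, ran from 9325 to 12830 and was 17680, 20753, 26097, 18824, and 14719 (0.85 ± 0.12, adjusted *P* = 1.03e-04). In WT muscle *Nfe2l1* was higher at 40 weeks as well, at 14328 to 15007 against 9780 to 13190 at 10 weeks. Of 31 proteasome subunit genes, 4 rose with replicate 2 and 0 without it, when limma passed 4 at an unadjusted *P* under 0.05. *Gpx4*, which detoxifies lipid peroxides, rose by 0.45 ± 0.10 (adjusted *P* = 0.00626).

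Of 28 p53 target and senescence genes, 5 rose and 2 fell (3 and 1 without replicate 2). *Cdkn1a* (chromosome 17, 29090976 to 29100727, plus strand), the gene of the cell cycle inhibitor p21, ran from 1395 to 2880 at 10 weeks (median 1889). It was 9429, 17567, 7834, 5605, and 3011 at 40 weeks, with replicate 5 just above the 10-week range (1.98 ± 0.41, adjusted *P* = 0.00377, 1.67 without replicate 2). *Eda2r*, which codes for a receptor of the TNF family, was 1444, 1366, 1324, and 1528 in replicates 1 to 4 and 550.2 in replicate 5, against 450.3 to 701.5 at 10 weeks (1.20 ± 0.30, adjusted *P* = 0.0152). *Mdm2*, whose protein degrades p53, rose by 0.55 ± 0.13 (adjusted *P* = 0.00884). *Lmnb1*, the lamin B1 gene that declines in senescent cells, fell by 0.81 on the log2 scale (adjusted *P* = 0.0103). Of 32 DNA repair genes 1 rose and 0 fell.

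Several genes that are rare in mature fibers rose from low levels. *Krt18* (chromosome 15, 102028180 to 102032027, plus strand), an epithelial keratin gene, ran from 4.71 to 35.5 normalized counts at 10 weeks (median 12.7) and was 315.0, 721.7, 183.9, 453.3, and 37.2 at 40 weeks (4.10 ± 0.74, adjusted *P* = 0.00105). *Th*, the gene of tyrosine hydroxylase in catecholamine synthesis, ran from 1.42 to 10.8 and was 107.3, 125.4, 70.5, 76.7, and 12.4 (4.19 ± 0.68, adjusted *P* = 4.96e-04). In both genes replicate 5 lay just above the 10-week range. *Cntn2* (chromosome 1, 132509427 to 132543256, minus strand), the gene of an axonal adhesion protein, ran from 0 to 3.07 and was 56.4, 8.95, 33.7, 46.4, and 15.2 (4.13 ± 0.53, adjusted *P* = 1.03e-04, 4.50 without replicate 2). *Ripply1*, which codes for a transcriptional corepressor of somite formation, gave 55, 30.4, 39.8, 64.2, and 11 at 40 weeks against 0 to 6.62 (4.55 ± 0.63, adjusted *P* = 1.03e-04). At these levels the fitted folds depend on the pseudocount of 1. *Cds1*, an enzyme gene of phosphatidylinositol synthesis, was the most even of them at 40 weeks, with 61.9, 69.8, 65.9, 62.5, and 63.4 against 6.14 to 22 at 10 weeks (2.42 ± 0.34, adjusted *P* = 1.06e-04). *Prkcz*, an atypical protein kinase C gene, rose by 1.99 ± 0.27 (adjusted *P* = 1.03e-04). *Ptpn14*, a phosphatase gene, did not start from a low level, at 475.4 to 571.8 normalized counts at 10 weeks. It rose by 0.79 ± 0.12 (adjusted *P* = 3.66e-04).

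Of 26 denervation and neuromuscular junction genes, 4 rose and 1 fell (3 and 0 without replicate 2), and of 23 myogenic and regeneration genes, 4 rose and 0 fell (2 and 0). *Myh3*, embryonic myosin heavy chain, ran from 22.9 to 259.1 at 10 weeks (median 47.4) and was 299.9, 908.0, 1182, 510.4, and 146.2 at 40 weeks. Only replicate 5 overlapped the 10-week range (3.49 ± 0.75, adjusted *P* = 0.00494). *Runx1*, a factor that denervated fibers induce, was 159.6, 465.6, 199.2, 121.4, and 63.4 against 36.9 to 63.8 (1.60 ± 0.43, adjusted *P* = 0.0199), and *Ncam1*, an adhesion gene of denervated and regenerating fibers, gave 1.12 ± 0.33 (adjusted *P* = 0.034). Without replicate 2 the adjusted *P* values of both missed the threshold (0.0931 and 0.121). *Chrnb1*, the acetylcholine receptor beta subunit gene, rose by 0.45 ± 0.13 (adjusted *P* = 0.0263). *Myl4*, an embryonic myosin light chain gene, ran from 30.3 to 62.8 and was 78.4, 168.3, 190.1, 126.7, and 99.3 (1.53 ± 0.32, adjusted *P* = 0.00406). In WT muscle *Myl4* was 54.8 to 103.2 at 10 weeks and 112.8 to 175.1 at 40 weeks.

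Secreted factors moved in both directions, with 2 of 22 that rose and 3 that fell (2 and 1 without replicate 2). *Ostn*, the gene of the muscle peptide musclin, ran from 232.6 to 644.1 at 10 weeks (median 481.6) and was 2388, 678.7, 1767, 2736, and 2285 at 40 weeks. Here replicate 2 was the lowest of the 40-week libraries (1.88 ± 0.35, adjusted *P* = 0.00168, 2.23 without it). *Ostn* was higher at 40 weeks in WT muscle too, at 511.3 to 1616 against 170.4 to 334.9 at 10 weeks. *Fst*, which codes for the myostatin inhibitor follistatin, was 213.2, 157.6, 216.1, 187.4, and 75.8 against 30.3 to 89.4, so replicate 5 overlapped (1.72 ± 0.35, adjusted *P* = 0.00353). *Cx3cl1*, the gene of the chemokine fractalkine and a member of the NF-kB list, ran from 40 to 72.3 and was 365.9, 218.5, 194.7, 358.7, and 121.4, with no overlap (1.90 ± 0.28, adjusted *P* = 2.15e-04). *Apln*, which codes for the vascular peptide apelin, fell from 58.4 to 235.4 (median 98.2) to 13.8, 5.37, 38.3, 35.7, and 27.6 (-2.44 ± 0.52, adjusted *P* = 0.00494), and that of its receptor, *Aplnr*, fell by 2.42 on the log2 scale (adjusted *P* = 0.00692), with a change of -1.75 without replicate 2. *Igf1*, the muscle growth factor gene, ran from 156.7 to 400.1 and was 83.9, 87.8, 133.3, 85.7, and 126.9 (-1.25 ± 0.33, adjusted *P* = 0.0184, -1.20 without replicate 2, adjusted *P* = 0.0552). In WT muscle *Igf1* was lower at 40 weeks as well, at 149.7 to 276.7 against 422.1 to 1127 at 10 weeks.

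The genes that follow were among those that fell with the smallest *P* values, a choice made only among genes whose groups did not overlap. *Mdga1* (chromosome 17, 29827949 to 29970087, minus strand), the gene of a surface glycoprotein, ran from 445.6 to 669.0 at 10 weeks (median 492.2) and was 108.7, 12.5, 47.5, 182.0, and 194.4 at 40 weeks (-2.75 ± 0.42, adjusted *P* = 2.35e-04, -2.13 without replicate 2). *Castor2* (chromosome 5, 134099711 to 134144343, plus strand), which codes for a relative of the arginine sensor of mTORC1, ran from 1578 to 1971 and was 1047, 539.1, 737.2, 1253, and 1302 (-1.06 ± 0.16, adjusted *P* = 2.15e-04). Replicate 2 had the lowest value of both, and the other 4 libraries still lay below every 10-week library. *Nrep*, a gene of regenerating nerve and muscle, ran from 849.1 to 1984 and was 132.1, 23.3, 142.5, 310.5, and 354.4 (-3.07 ± 0.52, adjusted *P* = 6.24e-04, -2.44 without replicate 2). *Map2k6*, the kinase gene above p38, ran from 202.8 to 322.6 and was 89.4, 21.5, 44.4, 89.2, and 108.9 (-1.90 ± 0.31, adjusted *P* = 4.96e-04). *Esr1*, the estrogen receptor alpha gene, ran from 411.7 to 618.2 and was 191.2, 189.8, 179.3, 330.1, and 308.9 (-1.15 ± 0.19, adjusted *P* = 4.96e-04). In WT muscle *Nrep* was also lower at 40 weeks, at 1442 to 1914 against 3015 to 3648 at 10 weeks.

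A further 7 genes fell with adjusted *P* values of 4.46e-04 to 7.63e-04. *Dnmt3a*, which codes for a DNA methyltransferase, fell by 1.02 on the log2 scale, and *Grb10*, an imprinted adaptor gene that inhibits insulin and IGF signaling, fell by 0.85. *Hacd1*, an enzyme gene of very-long-chain fatty acid synthesis in muscle, gave -1.46, *Rftn1*, a lipid raft protein gene, gave -1.52, and *Aga*, a lysosomal enzyme gene, gave -0.76. *Rmi2*, which codes for a subunit of the BLM helicase complex, gave -2.37, and *Kera*, a corneal and tendon keratan sulfate proteoglycan gene, gave -3.79. *Kera* was listed at 0 in replicate 2 and at 5.5 to 29 in the other 4 libraries, against 56.7 to 208.7 at 10 weeks, and its change was -3.00 without replicate 2. Each of these 7 kept its call without replicate 2 and within Novogene. In WT muscle *Dnmt3a*, *Hacd1*, *Rftn1*, and *Aga* were lower at 40 weeks too. Their 10-week ranges there were 1693 to 2032, 800.6 to 1375, 223.3 to 408.8, and 187.7 to 216.3. Their 40-week ranges there were 1106 to 1554, 483.0 to 590.2, 115.0 to 181.3, and 146.6 to 180.5. The WT ranges of *Grb10*, *Rmi2*, and *Kera* overlapped between the ages, but *Rmi2* and *Kera* were mostly lower at 40 weeks there. *Rmi2* was 55.7 to 115.0 at 10 weeks and 38.8 to 56.6 at 40 weeks. *Kera* was 80.2 to 237.3 at 10 weeks and 29.7, 17.5, 10.6, 18.8, and 90.7 at 40 weeks. *Grb10* was 520.6 to 711.6 and 521.9 to 611.5. On the insulin and IGF list as a whole, 4 of 30 genes rose and 4 fell with replicate 2, and 2 rose and 1 fell without it. *Mtor*, the growth kinase gene, rose by 0.65 ± 0.11 (adjusted *P* = 9.06e-04).

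Collagen genes were lower at 40 weeks, with a median log2 change of -0.75 over 27 tested, 7 that fell and 0 that rose. *Col15a1*, which codes for a basement membrane collagen, ran from 457.7 to 1238 (median 624.0) and was 119.7, 73.4, 364.8, 260.5, and 351.7 (-1.76 ± 0.41, adjusted *P* = 0.00822). *Col6a1*, *Col6a2*, and *Col6a3*, the chains of the collagen VI around fibers, gave -1.19, -1.25, and -1.24 and adjusted *P* values of 0.0404, 0.048, and 0.0487. Without replicate 2 the median stayed at -0.75, but 2 genes fell, and the 3 collagen VI chains had adjusted *P* values of 0.119, 0.172, and 0.186. *Sparc*, a collagen-binding protein gene, was 4355 to 10996 at 10 weeks and 1812, 1997, 2819, 3251, and 3202 at 40 weeks (-1.14 ± 0.34, adjusted *P* = 0.034), and without replicate 2 its change of -1.05 missed the threshold (adjusted *P* = 0.1). The median over the collagens was -0.37 in WT and -1.20 in KO+AAV muscle. In WT muscle *Col15a1* was 574.0 to 824.4 at 10 weeks and 406.6 to 528.3 at 40 weeks. *Sparc* was 3243 to 6586 and 1757 to 2444 there. The summed markers of fibro-adipogenic progenitors, the cells that make most muscle collagen, ran from 9984 to 29309 at 10 weeks and from 5446 to 13181 at 40 weeks, and 2 of the 12 fell (1 without replicate 2). That list holds the collagen genes *Col1a1* and *Col3a1*, and the sum of its other 10 markers ran from 5955 to 14977 at 10 weeks and from 4457 to 10953 at 40 weeks. Their part in the collagen change was not tested, and fewer such cells and less RNA per cell cannot be told apart.

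Few immune genes kept a call without replicate 2, but of the calls among all genes only 33.1% were kept without it. Whether immune genes lost calls more often than other genes was not tested. Of 37 interferon-response genes, 7 fell and 1 rose with replicate 2, and 1 fell and 0 rose without it. Their median log2 change was -0.61, with 34 of the 37 below 0, and -0.38 without replicate 2. At an unadjusted *P* under 0.05 limma passed 18 of them, and 12 without replicate 2. *Ifih1*, the gene of the RNA sensor MDA5, was the one that kept its call, from 89.4 to 107.6 at 10 weeks to 44, 32.2, 59.8, 58.9, and 67.6 at 40 weeks (-0.91 ± 0.19, adjusted *P* = 0.00439, -0.75 and adjusted *P* = 0.0217 without replicate 2). Of 31 TNF and NF-kB genes, 3 rose and 1 fell, and without replicate 2 *Cx3cl1* alone rose and 0 fell. Of 19 MHC class I genes 1 rose and 1 fell (1 and 0 without replicate 2), of 7 MHC class II genes 0 moved in limma or DESeq2 (2 in limma at an unadjusted *P* under 0.05), and of 16 complement genes 1 rose (0 without replicate 2, when 1 passed at an unadjusted *P* under 0.05). Macrophage markers summed to 507.9 to 1590 at 10 weeks and 488.4 to 1481 at 40 weeks, and 0 of 16 passed the test. Neutrophil markers were near 0, with sums of 6.28 to 17.7 and 22.1 to 87.8, *Ly6g* and *Camp* at 0 in all 11 libraries, and the highest sum in replicate 2.

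Few energy metabolism genes passed the test. None of 36 complex I genes, 26 TCA cycle genes, 39 genes of fatty acid uptake and oxidation, or 12 mitochondrial genome transcripts rose or fell in limma (median log2 changes 0.02, 0.09, 0.28, and 0.17), and DESeq2 called 0 of each. At an unadjusted *P* under 0.05 limma passed 2, 6, 5, and 0 of them. Of 42 genes of complexes II to V, 1 rose, a call lost without replicate 2. A pair of enzyme genes of glycogen synthesis stood out from 43 glycolysis and glycogen genes. *Gys1*, the gene of muscle glycogen synthase, ran from 5588 to 7347 at 10 weeks (median 6725) and was 8651, 15645, 13066, 8973, and 11257 at 40 weeks (0.76 ± 0.12, adjusted *P* = 4.96e-04). *Gbe1*, the branching enzyme gene, ran from 525.3 to 1258 and was 1630, 2488, 2613, 1487, and 1658 (1.14 ± 0.22, adjusted *P* = 0.00173). Both kept their calls without replicate 2, and the 2 genes of the list that fell did not. Of 33 lipid and cholesterol synthesis genes 1 fell, of 32 amino acid and polyamine genes 3 rose and 2 fell, and of 61 ribosomal protein genes 3 rose, and each of these 9 calls was lost without replicate 2. Of 28 cell cycle genes 0 moved in limma (10 at an unadjusted *P* under 0.05) and 1 fell in DESeq2.

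**Figure D3:**
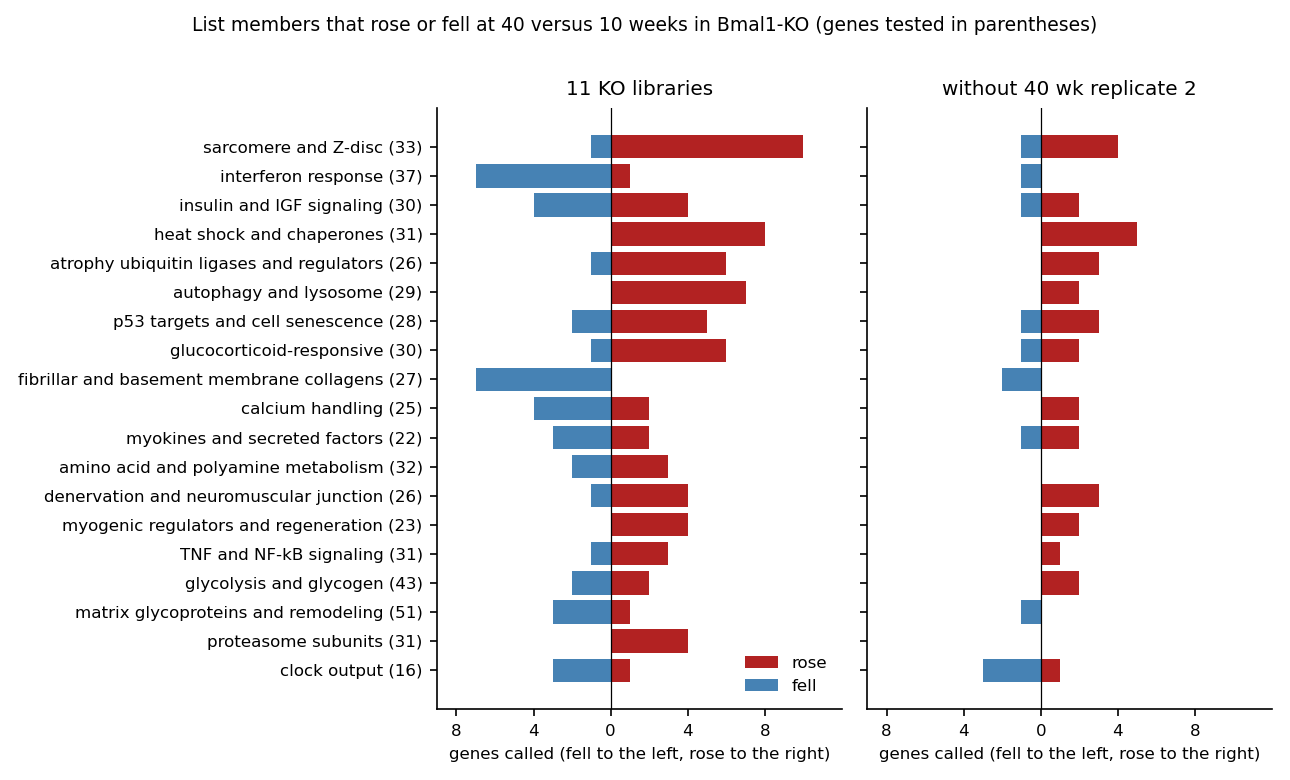
Number of list members (x axis) that rose (red, to the right) or fell (blue, to the left) at an adjusted *P* under 0.05, for the lists with 4 or more such genes, with the genes tested in parentheses. The left panel holds the 11 KO libraries and the right panel those without 40-week replicate 2. Sarcomere and Z-disc genes go from 10 and 1 to 4 and 1, and collagens from 7 that fell to 2.

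Replicate 2 carried very high levels of atrophy, FOXO, and glucocorticoid-responsive genes, which are named here after their values were seen. *Trim63*, the gene of the ubiquitin ligase MuRF1, had 63967 normalized counts in it and 4219, 2912, 4456, and 3637 in the other 40-week libraries, against 2947 to 5460 at 10 weeks. *Fbxo32*, the gene of atrogin-1, had 37693 in it and 4347 to 8498 in the others, against 3551 to 6475. The other 4 libraries lay in or near the 10-week range, and neither gene passed the test (adjusted *P* = 0.372 and 0.221). *Sesn1* and *Ddit4*, whose products inhibit mTORC1, had 11637 and 9522 in replicate 2, against 10-week medians of 406.6 and 203.9. *Klf15*, a glucocorticoid receptor target, had 5408 against 487.5, *Depp1*, a FOXO target, 10276 against 81, and *Cebpd*, a stress-induced factor gene, 4685 against 156.8. *Mt1*, a metallothionein gene, had 6513 against 108.4 and *Spsb1*, a ubiquitin ligase adaptor gene, 2611 against 68.7. Conversely *Ky*, a gene needed for muscle maintenance, had 146.9 in replicate 2 and 2909 to 5468 in the other 4, and *Myod1*, the myogenic factor gene, 78.8 against 467.5 to 990.4. A KO+AAV library, 40-week replicate 2, was high in part of the same genes. It had 34644 normalized counts of *Trim63* against 3524 to 5792 in the other 4 KO+AAV libraries at 40 weeks, 39574 of *Fbxo32* against 4789 to 7823, and 24529 of *Retreg1*, named below, against 3417 to 5644. Of 9232 genes with a mean above 100 over the KO+AAV libraries, 65 were more than 2-fold above the highest of the other 11 in it and 176 at less than 0.5 of the lowest.

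Part of that set was higher in all 40-week libraries. *Foxo1*, the gene of the factor that drives *Trim63* and *Fbxo32*, ran from 229.1 to 285.8 at 10 weeks (median 264.7) and was 792.4, 3331, 450.6, 501.5, and 398.6 at 40 weeks (1.62 ± 0.37, adjusted *P* = 0.00736, 1.08 and adjusted *P* = 0.0178 without replicate 2). *Foxo3* ran from 339.7 to 459.7 and was 649.3, 2523, 602.3, 531.8, and 572.3 (0.90 ± 0.26, adjusted *P* = 0.03). *Retreg1*, a receptor gene for autophagy of the endoplasmic reticulum, ran from 1677 to 2710 and was 3585, 52090, 4365, 3917, and 3147 (1.65 ± 0.49, adjusted *P* = 0.0345). In these 3 genes no 40-week library overlapped the 10-week range. The same held for *Gabarapl1*, an autophagosome gene, at 1084, 15346, 1661, 958.3, and 1288 against 632.9 to 911.9 (1.45 ± 0.42, adjusted *P* = 0.0325), of which 28.3% of exon sequence overlaps another gene. *Glul*, the glutamine synthetase gene, was 4489, 36265, 2353, 1512, and 2022 against 820.7 to 1571 (1.97 ± 0.52, adjusted *P* = 0.0188). Without replicate 2 the calls of *Foxo3*, *Retreg1*, *Gabarapl1*, and *Glul* were lost (adjusted *P* = 0.0834, 0.116, 0.0593, and 0.0595). In WT muscle *Retreg1* was 1988 to 2670 at 10 weeks and 3023 to 3878 at 40 weeks.

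As lists, 6 of 26 atrophy genes rose and 1 fell, 7 of 29 autophagy and lysosome genes rose, and 6 of 30 glucocorticoid-responsive genes rose and 1 fell. Without replicate 2 the counts that rose were 3, 2, and 2. The medians went from 0.44 to 0.05 for the atrophy list and from 0.90 to 0.42 for the glucocorticoid list.

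**Figure D4:**
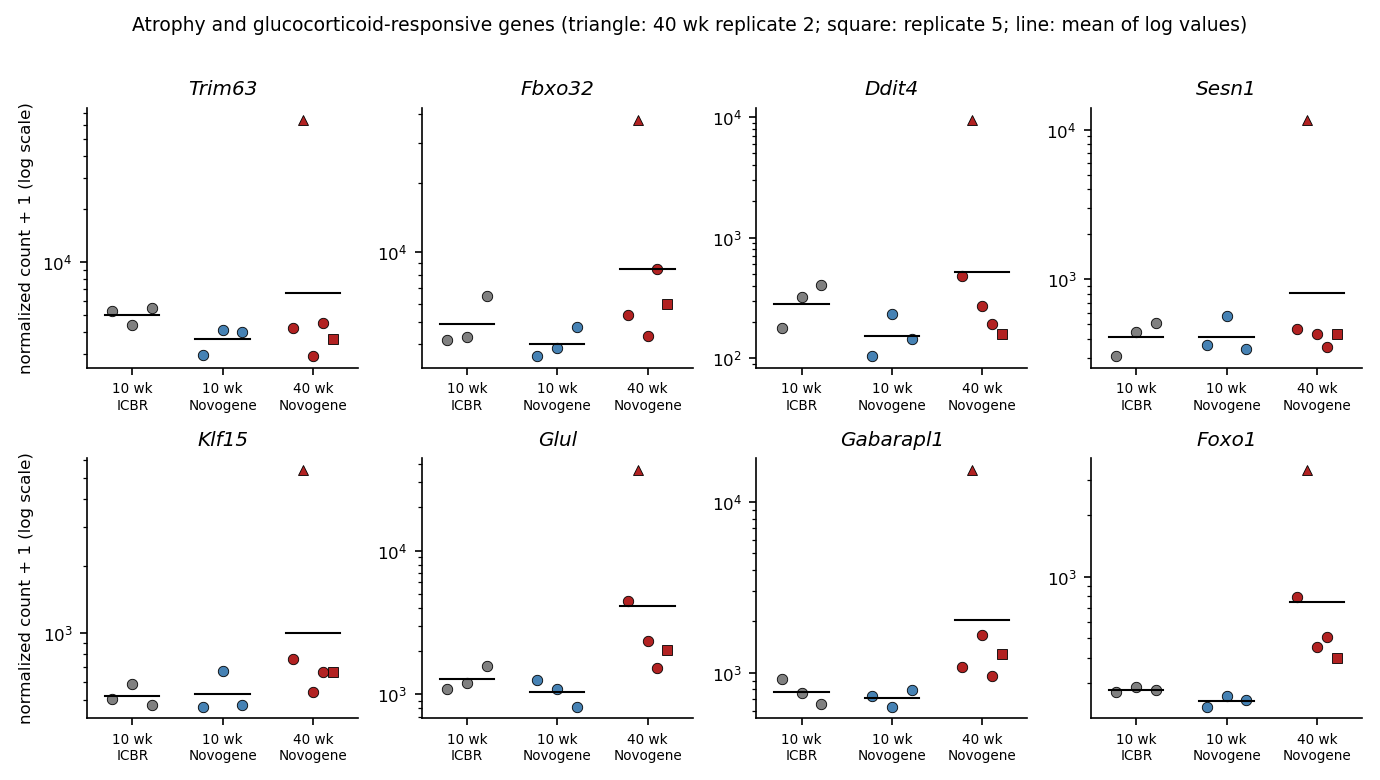
Normalized count plus 1 on a log axis for 8 genes in the KO libraries at 10 weeks from ICBR (gray), 10 weeks from Novogene (blue), and 40 weeks (red), with each point 1 library and the line the mean of log values. The triangle, 40-week replicate 2, is the highest point in every panel, for instance 63967 in *Trim63*, and the other 40-week points of *Foxo1* also lie above the 10-week range.

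The 40-week libraries differed in how far they lay from 10 weeks. Among the 245 genes that rose without overlap, replicate 5 had the 40-week value nearest to the 10-week range in 108 (44.1%) and replicate 2 the farthest in 151 (61.6%). Among the 278 that fell without overlap, replicate 5 was the nearest in 111 (39.9%) and replicate 2 the farthest in 207 (74.5%). Replicate 5 also had the highest sum of Schwann cell and myelin markers at 40 weeks, 8025 normalized counts against 985.0 to 2160 in the other 4, while at 10 weeks replicate 5 had 7772 against 1445 to 3431. The part of these markers in the order was not tested. Without 40-week replicate 5, 1838 genes were called.

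Markers of other cell types moved with age as follows. Smooth muscle and pericyte markers summed to 12180 to 14426 at 10 weeks and 9185 to 12281 at 40 weeks, and 2 of 10 fell (1 without replicate 2). Endothelial sums were 7109 to 10065 and 6860 to 9269. Satellite cell markers summed to 3482 to 3991 at 10 weeks and 3457 to 4754 at 40 weeks. Of these 10 markers 0 rose and 2 fell (0 and 0 without replicate 2), with a median log2 change of -0.60 (-0.47 without replicate 2). The sum of adipocyte markers was 8568 to 15513 at 10 weeks and 17051 to 42630 at 40 weeks, with *Car3* and *Plin4*, which muscle fibers also express, making up most of it. *Adipoq*, a gene of fat cells, was 15.1 to 232.8 at 10 weeks and 16.1 to 67.6 at 40 weeks. Of the 13 markers tested, 3 rose and 1 fell (1 and 0 without replicate 2), and 8 had changes above 0 and 5 below. *Cidea*, on the same list, was 1.54 to 34.5 at 10 weeks and 19.3 to 77 at 40 weeks (2.19, adjusted *P* = 0.0151). *Lep*, given below, was the marker that fell. The calls of *Cidea* and *Lep* were lost without replicate 2. The B and plasma cell sum was 1418 to 2499 at 10 weeks and 216.1 to 1371 at 40 weeks and was nearly all *Ighm*. The part of these cells in the age changes was not tested.

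The same ages in WT muscle gave 18 genes that rose (0.111%) and 6 that fell (0.037%), and in KO+AAV muscle 757 (4.67%) and 625 (3.86%). Of the 1346 genes called in KO muscle, 578 were called the same way in KO+AAV muscle (42.9% of the KO calls and 41.8% of the KO+AAV calls) and 0 the opposite way, both comparisons sharing the site term. Each of these groups holds a 40-week library that stood apart. Without KO+AAV 40-week replicate 2, 703 genes were called in KO+AAV muscle (471 rose, 232 fell) and 399 calls were shared (24.7% of 1616 KO calls and 56.8% of the KO+AAV calls). Without KO 40-week replicate 2, 2025 were called in KO+AAV muscle and 358 were shared (76% and 17.7%). The WT count of 24 was 63 in DESeq2 and 171 with library quality weights. It was 7 to 15 without 10-week WT replicate 2, 4, 5, 6, or 7, 40-week WT replicate 2, 3, or 4, or 10-week KO+AAV replicate 6. The age change differed between KO and WT in 60 genes (0.37%), by a test of the difference itself. In 37 of them the change was higher in KO, and 34 of these rose in KO muscle, and in 23 it was lower, 17 of which fell. The count was 24 without replicate 2 of the 40-week KO group or without its replicate 3, 150 without its replicate 4, and 197 without its replicate 5. It was 28 and 26 without 10-week KO replicates 2 and 3, and 33 to 39 without 10-week WT replicate 2, 3, 5, or 6 or 40-week WT replicate 2 or 3. With Novogene libraries alone limma called 0 genes (1347 at an unadjusted *P* under 0.05), a setting not run in the count-based tools.

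*Tpra1*, which codes for a membrane protein, had some of the tightest values. It was 379.6 to 453.1 at 10 weeks and 694.7, 625.0, 633.0, 633.5, and 570.9 at 40 weeks in KO muscle, a change of 0.50 ± 0.10 (adjusted *P* = 0.00173). In WT muscle it was 258.4 to 367.9 and 231.4 to 312.0, and the changes differed by 0.77 ± 0.13 (adjusted *P* = 0.00383). The age changes of *Cntn2*, *Th*, and *Cx3cl1* exceeded those in WT by 4.21, 4.68, and 1.91 (adjusted *P* = 0.00434, 0.0188, and 0.0188). In WT muscle *Cx3cl1* stayed between 28.2 and 73.5 at both ages. The changes of *Castor2*, *Mdga1*, *Map2k6*, and *Esr1* were lower than in WT, with differences of -1.16, -2.32, -1.73, and -1.10 (adjusted *P* = 0.0109, 0.0498, 0.0478, and 0.035). Without replicate 2 the differences of *Map2k6* and *Esr1* missed the threshold (adjusted *P* = 0.0835 for both), and those of the other 6 genes passed it. In these 8 genes the change in KO+AAV muscle had the sign of that in KO muscle, and no difference between those changes passed the test (adjusted *P* 0.929 to 1).

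*Lep*, the gene of the fat cell hormone leptin, was 6.73 to 81.1 at 10 weeks and 0, 0, 3.07, 8.92, and 2.76 at 40 weeks in KO muscle, and 3.28 to 50.3 and 37.5 to 420.6 in WT. The changes differed by -6.75 ± 1.08 (adjusted *P* = 0.00383). The fat cell gene *Adipoq* moved with it in the WT libraries. At 40 weeks WT replicates 1 to 5 had 53.4, 352.1, 277.9, 420.6, and 37.5 normalized counts of *Lep* and 43, 289.5, 263.7, 417.5, and 51.6 of *Adipoq*. The age change of *Adipoq* was 1.82 in WT muscle and differed between KO and WT by -2.27 (adjusted *P* = 0.289), and the part of fat cells in the *Lep* difference was not tested. *Nr5a2*, a nuclear receptor gene, was 10.4 to 26.9 and then 0, 5.37, 1.53, 3.57, and 1.38 in KO, and 3.94 to 7.96 and 7.08 to 10.9 in WT (difference -3.22 ± 0.61, adjusted *P* = 0.0188).

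*Mylk4* was the 1 gene (0.00617% of those tested) whose age change differed between KO and KO+AAV muscle. WT muscle held 23639 to 39225 normalized counts at 10 weeks and 25750 to 40587 at 40 weeks, KO+AAV muscle 5021 to 16462 and 5598 to 13675, and KO muscle 982.3 to 2845 and 53.6 to 638.5. The KO groups thus lay below the others at both ages and were further apart from them at 40 weeks. The age change was 0.33 in WT and 0.04 in KO+AAV muscle, and that in KO differed from them by -3.63 ± 0.58 and -3.34 ± 0.57 (adjusted *P* = 0.00383 and 0.0306). Without replicate 2 the difference from KO+AAV was -3.04 and missed the threshold (adjusted *P* = 0.0553), and the 1 gene called was another. Leaving out 1 library at a time from the 34 gave 0 to 2 genes for the difference from KO+AAV, edgeR gave 0 (931 at an unadjusted *P* under 0.05), DESeq2 gave 5, and limma on Novogene libraries alone gave 0 (623 at an unadjusted *P* under 0.05).

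**Figure D5:**
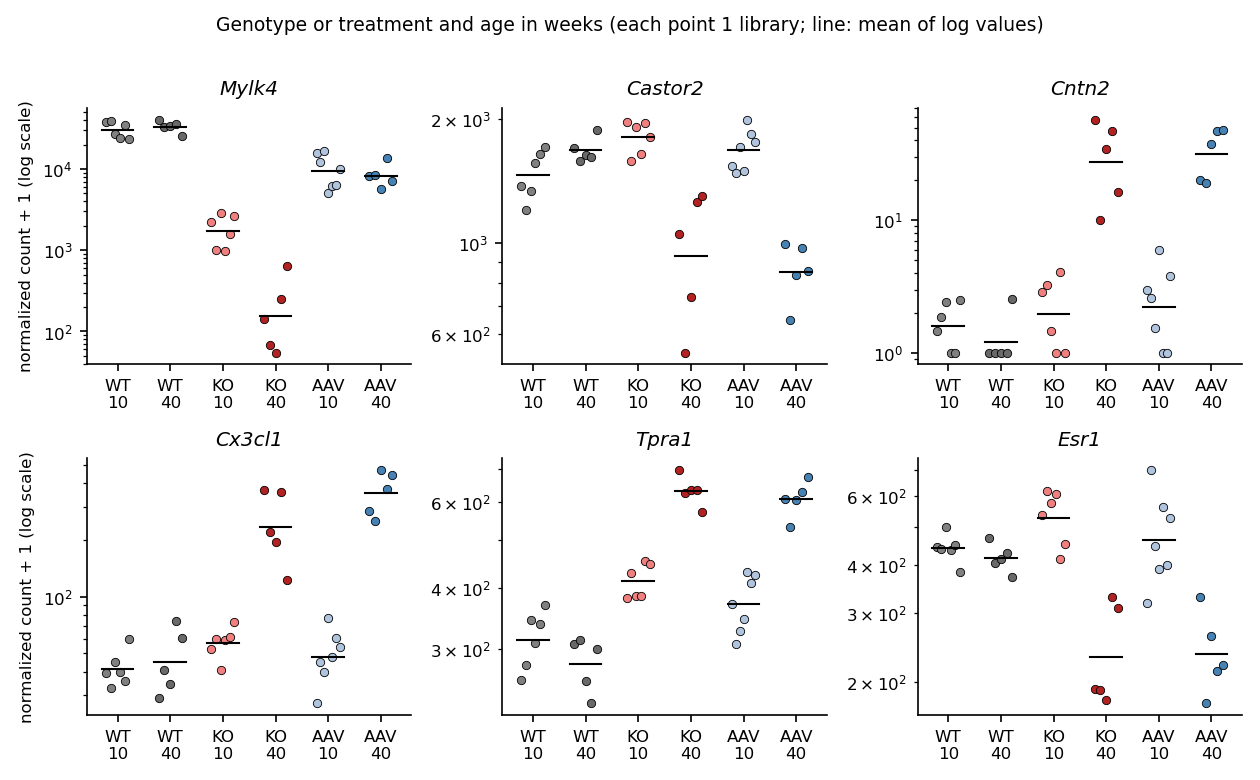
Normalized count plus 1 on a log axis for 6 genes in WT, KO, and KO+AAV (AAV) gastrocnemius at 10 and 40 weeks, with each point 1 library and the line the mean of log values. *Mylk4* in KO goes from at least 982.3 to at most 638.5, the other 5 genes move the same way in KO and KO+AAV, and the WT points of the 2 ages overlap in all 6.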

How the data were processed

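Poly(A)-selected RNA was sequenced from gastrocnemius, and the authors aligned reads to GRCm38 (mm10) with HISAT2 and counted them per gene with HTSeq, per the labels and the study's methods. The annotation release and strand setting are not given in the sources used here. The signal values deposited by the authors are HTSeq counts scaled with a single size factor for each library, computed in DESeq2. Each value times its size factor gave a whole number within 0.05, so reads were recovered for 34 gastrocnemius libraries. The intervals given are SEs of the fit.

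The main test was limma 3.58.1 (R 4.3.3), with trended variance, on log2(value + 1) in 6 groups (WT, KO, and KO+AAV at 10 and 40 weeks) plus a site term, for 16199 genes with a mean above 5, with Benjamini-Hochberg adjustment over all of them. A log2 fold change on this scale understates the change of low genes. Of all genes tested, 3726 differed between sites at an adjusted *P* under 0.05. Alternatives were dropping the filter or raising it to a mean above 50, adding 0.5 in place of 1 before the log, size factors computed anew, no site term, Novogene alone, library quality weights, a replicate block, KO libraries alone, each library left out, and DESeq2 1.42.0 and edgeR 4.0.16 on recovered reads. Leaving out WT or KO+AAV libraries, and leaving out 40-week KO replicate 2 in the Novogene and KO fits, were added after seeing the data. A single gene was tested by exact permutation (scipy 1.17.1).

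The comparison, 53 gene lists, and tests were chosen with earlier results of these data known. Named genes were *Arntl*, the 12 in each direction with the smallest *P* among called genes whose groups did not overlap, the 6 in each direction with the largest change among those with a group mean above 50, the 5 in each direction with the smallest *P* in each difference of age changes, and the 3 members of each list with the smallest *P*. Outside this rule, and named after their values were seen, were *Actc1*, *Adipoq*, *Aplnr*, *Cacna2d4*, *Car3*, *Cebpd*, *Chrnb1*, *Cidea*, *Col1a1*, *Col3a1*, *Col6a1*, *Col6a2*, *Col6a3*, *Cryab*, *Dbp*, *Ddit4*, *Depp1*, *Eda2r*, *Fbxo32*, *Foxo3*, *Gabarapl1*, *Hspb7*, *Igf1*, *Ighm*, *Klf15*, *Ky*, *Mt1*, *Myh7*, *Myod1*, *Nr1d1*, *Per1*, *Per2*, *Plin4*, *Retreg1*, *Sesn1*, *Spsb1*, *Tnni1*, *Trim63*, and *Wee1*. Coordinates are those of GENCODE vM21 and promoters those of RefSeq, both on GRCm38. Some genes are not reported here.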

Additional observations from a re-analysis of the deposited data

Results flagged for a closer look

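A group's highest or lowest library was taken as far from the others where its gap to the nearest other library, divided by the range of the group, passed Dixon's 95% critical value. This held for 32 of 226 groups of KO libraries tested, 24 of them at 40 weeks, and in 17 of these the library was replicate 2. Chance gives about 1 in 20 where values are normally distributed. The ratios were taken on normalized counts without logs, for which that rate was not tested. Many of these genes were also named because of replicate 2.

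At 40 weeks replicate 2 was the far library, at the high end, with these ratios: *Arntl* 0.880, *Cebpd* 0.960, *Ddit4* 0.966, *Depp1* 0.964, *Fbxo32* 0.876, *Foxo1* 0.866, *Foxo3* 0.941, *Gabarapl1* 0.951, *Glul* 0.914, *Klf15* 0.955, *Mt1* 0.887, *Mtor* 0.748, *Per1* 0.924, *Retreg1* 0.975, *Sesn1* 0.990, *Spsb1* 0.983, and *Trim63* 0.975. The 40-week replicate 3 was the highest in *Car3* (0.894), *Myh7* (0.747), *Tnni1* (0.781), and *Nqo1* (0.764). The 40-week replicate 5 was the lowest in *Eda2r* (0.792) and the highest in the sums of Schwann cell markers (0.833) and of smooth muscle markers (0.761). At 10 weeks a library was the highest in *Actc1* (0.743), *Apln* (0.674), *Col15a1* (0.639), *Mt1* (0.699), *Myh3* (0.854), *Th* (0.670), and the Schwann cell sum (0.686), and the lowest in *Ky* (0.727).

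The age change differed between KO and WT, by a test of the difference, in *Mylk4* (-3.63), *Castor2* (-1.16), *Mdga1* (-2.32), *Map2k6* (-1.73), *Esr1* (-1.10), *Lep* (-6.75), *Nr5a2* (-3.22), *Cntn2* (4.21), *Th* (4.68), *Cx3cl1* (1.91), and *Tpra1* (0.77), all as log2 differences, and between KO and KO+AAV in *Mylk4* (-3.34).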

How the results depend on the processing

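The 1346 genes called at 40 versus 10 weeks in KO muscle numbered 1200 to 1678 with a pseudocount of 0.5, a mean above 50, size factors computed anew, no site term, edgeR, or DESeq2. They numbered 848 with no filter, 392 with Novogene libraries alone, 531 with library quality weights, 3 with KO libraries alone, 245 with Novogene alone without replicate 2, and 57 with KO alone without it. Leaving out 1 library gave 471 (40-week KO replicate 2) to 1838 (40-week KO replicate 5). The 60 genes that differed between KO and WT became 28 with no filter, 36 with a mean above 50, 206 in DESeq2, 39 in edgeR, 29 with no site term, 118 with weights, and 0 with Novogene alone, with or without replicate 2, and 24 to 197 with 1 library left out. The 1 gene that differed between KO and KO+AAV became 2 with a mean above 50, 5 in DESeq2, 0 with no filter, in edgeR, with no site term, with weights, or with Novogene alone, and 0 to 2 with 1 library left out. Called list members went from 124 to 76 with no filter, 50 with Novogene alone, 61 with weights, 0 with KO alone, 34 and 7 for the last pair without replicate 2, and 46 to 164 with 1 library left out. Called named genes went from 101 to 65, 2, 51, and 20 with Novogene alone, KO alone, and the same without replicate 2, and to 63 to 101 with 1 library left out. The *Arntl* difference ran from 0.55 to 1.04 with 1 library left out, where 4 against 3 or 5 against 2 libraries cannot reach an exact *P* under 0.05. The Novogene and KO fits hold fewer libraries by construction. The cause of the other shifts was not tested. Among single named genes no change reversed, 7437 gene-and-setting pairs kept their side of the threshold, 879 lost the call, and 74 gained it. At 9325122 to 12652064 reads per 40-week KO library, genes near the mean of 5 rest on few reads.

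Replicate numbers were checked for pairing between the 2 ages only, and the labels do not say what the numbers stand for. Whether same-numbered libraries of 1 age share a batch or litter was not tested. Replicate 2 was the highest 40-week library of KO, KO+AAV, and WT muscle in *Per1*, *Ddit4*, and *Depp1*. It was not the highest of WT muscle in *Trim63* or *Fbxo32*. Same-numbered KO libraries of the 2 ages deviated together with correlations of -0.136 to 0.139, 1 of 4 above 0.1, and 1 of 4 40-week libraries correlated best with its own number. With a replicate block 7 genes were called in KO, 45 for KO minus WT, 0 for KO minus KO+AAV, 0 list members, and 2 named genes.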
